A study of Mus musculus with 9 samples.

Results

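Most of the genes described here build the intercalated disc and its gap junctions. They are the connexins Gja1, Gja5 and Gjc1, the desmosome genes Dsp, Dsg2, Dsc2, Pkp2 and Jup, and the classical cadherin Cdh2. The last gene, Cdh15, is a classical cadherin of skeletal myoblasts and not of the disc. All were chosen by name, as every probe set annotated to 1 of these 10 symbols, which gave 28 of the 45101 probe sets on the array. Expression was compared on mouse Affymetrix arrays between fibroblasts, fibroblasts turned into cardiomyocyte-like cells with small molecules, and heart cardiomyocytes, 3 arrays of each. The comparisons ask how far the chemically induced cells have left the fibroblast state and how close they come to heart cells.

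The fibroblasts (MEF) were isolated from embryos of C57BL/6 mice at embryonic day 13.5. The chemically induced cells (CiCM) were such fibroblasts cultured with CHIR99021 (10 µM), RepSox (10 µM), forskolin (50 µM), valproic acid (VPA, 0.5 mM), Parnate (5 µM) and TTNPB (1 µM), and beating clusters were picked on day 24. Cardiomyocytes (CM) were taken directly from mouse hearts, and the strain and age of those mice were not given in the sources used here. Neither MEF nor CM is described as having received the compounds, and CiCM clusters were selected for beating, which limits them as a sample of the whole treated culture. The 3 samples of a group are labelled as biological replicates, and 3 arrays a group set the precision.

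Cardiomyocytes are joined end to end at the intercalated disc. Gap junctions there, made of connexins, pass current and small molecules from cell to cell, desmosomes tie the intermediate filament desmin to the membrane, and cadherin junctions hold the actin of the myofibrils. In the mouse heart Gja1 encodes the main connexin of working ventricular muscle, Gja5 that of atrium, conduction system and arterial endothelium, and Gjc1 one of the early heart, the nodes and smooth muscle. Cdh15, M-cadherin, is by contrast the cadherin of skeletal myoblasts and satellite cells.

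Promoter sequence was at hand for 5 of the 10 genes (RefSeq, build GRCm38.p6; Gja1, Gja5, Dsp, Jup and Cdh15), and Gjc1, Dsg2, Dsc2, Pkp2 and Cdh2 were not matched. The windows of 3 genes are shown 5′ to 3′ on the gene's strand, because Cdh15 and Dsp were the members called higher in CiCM than in MEF and Gja1 is the main ventricular connexin. Each holds the 250 bases before the transcription start, at chr8:122848124-122848373 (+) for Cdh15, chr13:38151044-38151293 (+) for Dsp and chr10:56377050-56377299 (+) for Gja1. Capitals mark every E-box, CANNTG, the letters bound by basic helix-loop-helix factors such as MyoD and myogenin.
Cdh15: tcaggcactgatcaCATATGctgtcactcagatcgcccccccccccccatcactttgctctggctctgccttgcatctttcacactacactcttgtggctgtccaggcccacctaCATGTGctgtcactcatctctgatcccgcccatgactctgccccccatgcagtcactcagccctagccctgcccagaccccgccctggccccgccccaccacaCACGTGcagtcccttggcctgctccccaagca
Dsp: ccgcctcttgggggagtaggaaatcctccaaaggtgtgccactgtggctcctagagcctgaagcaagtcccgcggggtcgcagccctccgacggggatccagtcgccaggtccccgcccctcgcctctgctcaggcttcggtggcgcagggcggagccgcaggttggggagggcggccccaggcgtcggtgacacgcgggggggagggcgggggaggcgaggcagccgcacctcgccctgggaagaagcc
Gja1: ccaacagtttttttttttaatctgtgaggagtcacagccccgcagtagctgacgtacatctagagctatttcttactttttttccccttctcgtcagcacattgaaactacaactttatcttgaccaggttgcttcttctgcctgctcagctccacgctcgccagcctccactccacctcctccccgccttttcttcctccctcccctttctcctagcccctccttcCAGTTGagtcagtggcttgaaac

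The Cdh15 window held 3 E-boxes, whose first bases lay 236, 135 and 32 bases before the start. The Gja1 window held 1, at 23 bases before the start, and the windows of Dsp, Gja5 and Jup held 0. Of 32851 mouse promoter windows of this length, 66.2% held at least 1 E-box and 12.2% at least 3. GC boxes, GGGCGG on either strand, numbered 4 for Dsp, 3 for Cdh15, 2 for Jup, 1 for Gja5 and 0 for Gja1, and 32.7% of windows held at least 1. A GATA motif (AGATAA or TGATAA, or either ending in G, on either strand) stood once in the Gja1 and once in the Jup window, against 26.5% of windows with at least 1. These matches describe letters in a window and say nothing of binding.

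Each array had been scaled by its submitters, with a trimmed mean of 500.003 linear signal units on all 9, and its median log2 signal was 6.37 to 6.53 in MEF, 6.41 to 6.53 in CiCM and 6.75 to 6.85 in CM. Arrays of 1 group correlated at a mean of 0.973 for MEF, 0.967 for CiCM and 0.940 for CM, over the genes tested. Genes whose highest group mean lay under 6.58, the median of the whole table and called the line here, were not tested, which left 12559 genes. Markers of the labelled types were checked: 8 of 8 cardiomyocyte genes lay at or above the line in CM, 4 of 8 in CiCM and 1 of 8 in MEF. In CiCM, Tnnt2 (14.50), Actn2 (13.22), Myl3 (8.61) and Myh6 (7.13) were at or above it, while Ryr2, Nkx2-5, Tnni3 and Pln had means under it. In CM, Myl3 and Myh6 had means of 15.55 and 15.72. Skeletal muscle markers were also high in CiCM, as given below, and which cells made these genes was not tested. CM replicate 1 stood apart in atrial genes, with a summed linear signal of 137314 over 6 genes against 8472 and 5585 in CM replicates 2 and 3. It was also the highest CM array in epithelial and mesothelial markers, 3398 against 951 and 400. Without that array the members' counts of calls were the same in all 3 comparisons. The part of atrial, epithelial or mesothelial cells in the members' values was not tested.

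Of the 10 genes, 9 passed the line and were tested with limma, and Gja5, with a highest group mean of 6.24, did not. Calls required a Benjamini-Hochberg adjusted p below 0.05 together with a minimum log2 difference of 1. Against MEF, CM had 7 of 9 genes higher (Gja1, Dsp, Dsg2, Dsc2, Pkp2, Jup and Cdh2) and 0 lower, where 22.1% of all tested genes were called higher and 21.8% lower. Against MEF, CiCM had 2 higher (Dsp and Cdh15) and 2 lower (Gjc1 and Cdh2), where 11.6% of all genes were higher and 12.2% lower. Against CM, CiCM had 8 of 9 lower and 1, Cdh15, higher, where 19.0% of all genes were lower and 16.5% higher. Dsg2 and Dsc2 passed the line only through CM and Cdh15 only through CiCM, so the filter itself favoured calls toward those groups. The median log2 difference over the 9 genes was 2.15 for CM minus MEF, 0.41 for CiCM minus MEF and -3.00 for CiCM minus CM, while that of all genes was -0.03 in each. CiCM stands in 2 of these comparisons and MEF in 2, so the 3 sets of values share arrays. The arrays hold RNA of many cells, so fewer cells of a type and less RNA per cell cannot be told apart.

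**Figure D1:**
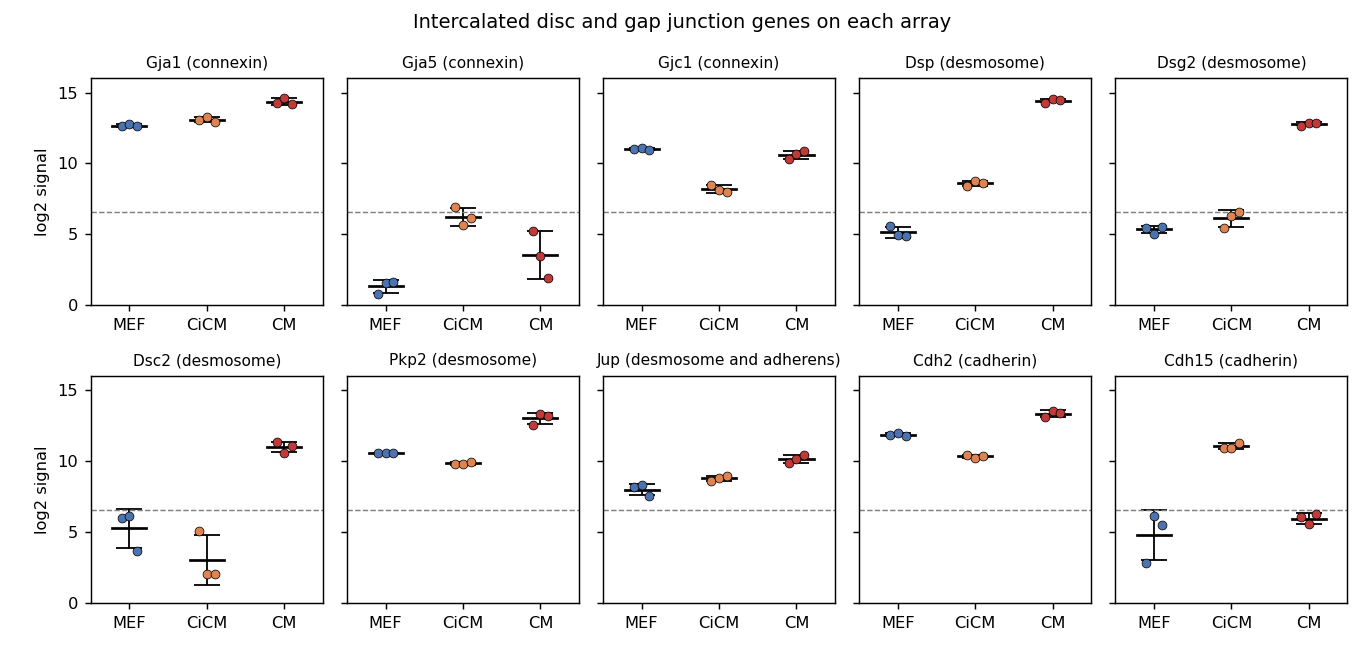
Log2 signal (vertical axis) of the 10 genes on each array, by group, with the mean ± SD of 3 arrays in black and the line of 6.58 dashed. Gja1, Dsp, Dsg2, Dsc2, Pkp2, Jup and Cdh2 were highest in CM, Cdh15 and Gja5 were highest in CiCM, and Gjc1 was lowest in CiCM.

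Among the connexins, Gja1 was called higher in CM than in both other groups and its CiCM level lay between them, nearer MEF. Its log2 signal was 12.66, 12.76 and 12.61 in MEF replicates 1 to 3, 13.06, 13.26 and 12.94 in CiCM, and 14.24, 14.65 and 14.22 in CM. Every CM array was above every CiCM array and every CiCM array above every MEF array. The mean log2 difference was 1.69 ± 0.13 (SE) for CM minus MEF, a fold of 3.24 (adjusted p = 5.65e-07, limma), and -1.28 ± 0.13 for CiCM minus CM (adjusted p = 7.63e-06). For CiCM minus MEF it was 0.41 ± 0.13 (adjusted p = 0.0188), a fold of 1.33 that did not reach the minimum difference. The scaling touches the heart comparisons of Gja1: levelled on hybridisation controls, CM minus MEF was 0.89 and no longer called, and CiCM minus CM was -0.98 after median centring, -0.99 after quantile normalization and -0.71 after levelling, each short of a call.

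Gjc1, whose product forms low-conductance channels, fell in CiCM against both other groups. The MEF arrays read 11.02, 11.07 and 10.99, the CiCM arrays 8.49, 8.11 and 7.98, and the CM arrays 10.34, 10.64 and 10.89. CiCM lay under both other groups with no overlap, and CM lay just under MEF. The log2 difference was -2.83 ± 0.16 for CiCM minus MEF, 7.11-fold lower (adjusted p = 2.72e-07), and -2.43 ± 0.16 for CiCM minus CM, 5.39-fold lower (adjusted p = 5.12e-07). CM minus MEF was -0.40 ± 0.16 (adjusted p = 0.0479), under the minimum difference, and with arrays levelled on hybridisation controls it was -1.20 and called lower. The other Gjc1 probe set gave -3.68, -0.73 and -2.94 for the same comparisons. The summed signal of smooth muscle and pericyte markers was also lowest in CiCM, at 8585 to 9781. It was 15848 to 16862 in MEF and 22672 to 30265 in CM. At or above the line were 6 of 6 of these genes in MEF and CiCM and 5 of 6 in CM. They did not share 1 pattern: Smtn, Rgs5 and Cspg4 had their lowest mean in CiCM. Cnn1 (10.76 in CiCM, 5.16 in CM) and Pdgfrb (12.49, 11.59) had it in CM, and Myh11 was level between them (8.92, 8.91). The summed signal of macrophage markers was lowest in CiCM too, at 1278 to 1626, against 8161 to 8572 in MEF and 7208 to 8285 in CM. Of these 6 genes, 6 lay at or above the line in MEF, 3 in CiCM and 5 in CM. The part of smooth muscle cells, pericytes and macrophages in the Gjc1 values was not tested.

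Gja5 had its highest values in CiCM, near the line, and lay under the line on every MEF and CM array. It read 0.80, 1.56 and 1.65 in MEF, 6.92, 5.64 and 6.15 in CiCM, and 5.27, 3.50 and 1.90 in CM. The 3 groups did not overlap, and the CM arrays spread over more than 3 log2 units. With the line removed, CiCM minus MEF was 4.90 ± 0.93 (adjusted p = 0.00144), CiCM minus CM was 2.68 ± 0.93 (adjusted p = 0.0350) and CM minus MEF was 2.22 ± 0.93 (adjusted p = 0.0693). Signals this low move with any constant: with 32 added to the linear signals the same differences were 1.65, 1.19 and 0.47. Within CM, replicate 1 was the highest for Gja5 and also for the atrial list. By group mean, 6 of 6 genes of that list lay at or above the line in CM, 4 of 6 in CiCM and 2 of 6 in MEF. In CM replicate 3, however, Sln (2.97), Myl7 (5.98) and Bmp10 (4.62) lay under it. The atrial sums were 24595 to 28111 in CiCM and 1271 to 1441 in MEF. The CiCM sum rested mainly on Myl4, at 14.50, 14.70 and 14.54. Sln and Nppa had CiCM means of 7.93 and 6.64, with Nppa under the line in CiCM replicates 1 and 2 (6.48 and 6.54). Myl7 (4.66) and Bmp10 (5.19) had CiCM means under the line. Nr2f2 was level over MEF, CiCM and CM (10.02, 10.08 and 10.10). The part of atrial cells in the Gja5 values was not tested.

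All 5 desmosome genes were higher in CM than in both other groups, with CiCM minus CM from -7.97 to -1.36, and Dsp alone of them was called higher in CiCM than in MEF. Dsp encodes desmoplakin, the plaque protein that binds desmin filaments. Its log2 signal was 5.56, 4.94 and 4.90 in MEF, 8.42, 8.73 and 8.61 in CiCM, and 14.30, 14.53 and 14.50 in CM. The groups formed 3 separate steps, with MEF under the line and both muscle groups above it. CiCM minus MEF was 3.45 ± 0.18 (11.0-fold higher, adjusted p = 1.30e-07) and CiCM minus CM was -5.85 ± 0.18 (57.8-fold lower, adjusted p = 3.22e-09). CM minus MEF was 9.31 ± 0.18 (634-fold higher, adjusted p = 8.12e-11). With 32 added, CiCM minus MEF was 2.63 and CM minus MEF 8.37, so the size of the fold against MEF rests on a low signal.

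Dsg2 and Dsc2 encode the desmosomal cadherins of heart muscle, desmoglein and desmocollin, which bridge the gap between the cells. Dsg2 read 5.47, 5.04 and 5.53 in MEF, 5.44, 6.31 and 6.61 in CiCM, and 12.67, 12.83 and 12.89 in CM. CM stood far above both others, and CiCM replicate 1 lay within the MEF range. The difference was 7.44 ± 0.28 for CM minus MEF (174-fold higher, adjusted p = 4.51e-09), CiCM minus CM was -6.67 ± 0.28 (102-fold lower, adjusted p = 2.19e-08), and CiCM minus MEF was 0.77 ± 0.28 (adjusted p = 0.0400), short of the minimum difference. Without CiCM replicate 1 that last difference was 1.11 and was called (adjusted p = 0.00165). The MEF and CiCM means lay under the line, and the folds against them shrink with an added constant: with 32 added, CM minus MEF was 6.61 and CiCM minus CM was -6.12. Its probe sets did not agree on CiCM against MEF, where they ran from -2.78 to 2.43, with 1 of them called higher and 1 called lower.

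Dsc2 read 6.00, 6.10 and 3.68 in MEF, 5.07, 2.01 and 2.02 in CiCM, and 11.32, 10.59 and 11.09 in CM. MEF and CiCM overlapped and both lay under the line on every array, while CM lay well above it. CM minus MEF was 5.74 ± 0.86 (adjusted p = 0.000139) and CiCM minus CM was -7.97 ± 0.86 (adjusted p = 1.62e-05). CiCM minus MEF was -2.23 ± 0.86 (adjusted p = 0.0513) and was not called. Among the alternatives that made that call were median centring (-2.28), levelling on hybridisation controls (-2.45), omission of MEF replicate 3 (-3.01) and omission of CiCM replicate 1 (-3.24), and with 32 added it was -0.78. With 32 added CM minus MEF was 4.78 and CiCM minus CM was -5.56. The CiCM mean was thus under the line for both, at 6.12 ± 0.61 (SD, n = 3) for Dsg2 and 3.03 ± 1.76 for Dsc2.

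Pkp2 and Jup encode the armadillo proteins plakophilin and plakoglobin, which link the desmosomal cadherins to desmoplakin. Pkp2 read 10.58, 10.60 and 10.58 in MEF, 9.82, 9.79 and 9.96 in CiCM, and 12.57, 13.30 and 13.18 in CM. The groups did not overlap, and here CiCM lay under MEF while CM lay above it. The difference was 2.43 ± 0.16 for CM minus MEF (5.40-fold higher, adjusted p = 2.24e-07), CiCM minus CM was -3.16 ± 0.16 (8.96-fold lower, adjusted p = 7.20e-08), and CiCM minus MEF was -0.73 ± 0.16 (adjusted p = 0.00311), under the minimum difference. All 4 Pkp2 probe sets were higher in CM than in MEF, by 1.26 to 2.43, and all 4 were lower in CiCM than in CM, with differences of -3.16 to -1.97. For CiCM minus MEF they ran from -0.90 to -0.71, of 1 sign, and none was called.

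Jup read 8.16, 8.29 and 7.53 in MEF, 8.59, 8.83 and 8.93 in CiCM, and 9.87, 10.12 and 10.44 in CM. The groups did not overlap and lay in that order. CM minus MEF was 2.15 ± 0.22 (adjusted p = 6.40e-06), CiCM minus CM was -1.36 ± 0.22 (adjusted p = 0.000284) and CiCM minus MEF was 0.79 ± 0.22 (adjusted p = 0.0109), short of a call. Levelled on hybridisation controls, CiCM minus CM was -0.78 and was no longer called. Omission of CM replicate 1, the array high in mesothelial markers, changed no desmosome call: CM minus MEF was then 9.38 for Dsp, 7.51 for Dsg2, 5.58 for Dsc2, 2.66 for Pkp2 and 2.29 for Jup. The part of epithelial or mesothelial cells in the desmosome values was not tested.

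The 2 cadherins moved apart in CiCM. Cdh2, N-cadherin, the cadherin of the adherens junctions of the disc, fell against both other groups, and Cdh15 rose against both. Cdh2 read 11.86, 11.96 and 11.80 in MEF, 10.47, 10.24 and 10.35 in CiCM, and 13.09, 13.54 and 13.42 in CM. No group overlapped another, with CiCM lowest and CM highest. CiCM minus MEF was -1.52 ± 0.12 (2.88-fold lower, adjusted p = 2.41e-06), CM minus MEF was 1.47 ± 0.12 (2.78-fold higher, adjusted p = 1.06e-06) and CiCM minus CM was -3.00 ± 0.12 (7.98-fold lower, adjusted p = 1.48e-08). Levelled on hybridisation controls, CM minus MEF was 0.67 and was not called. The second Cdh2 probe set gave -1.92, 0.96 and -2.88 for the 3 comparisons, of which CM minus MEF was not called.

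Cdh15 read 2.78, 6.13 and 5.47 in MEF, 10.96, 10.93 and 11.29 in CiCM, and 6.05, 5.55 and 6.26 in CM. Only the CiCM arrays lay above the line, and the MEF and CM arrays overlapped under it. CiCM minus MEF was 6.27 ± 0.68 (77.1-fold higher, adjusted p = 2.93e-05) and CiCM minus CM was 5.11 ± 0.68 (34.5-fold higher, adjusted p = 7.70e-05). With 32 added these were 5.01 and 4.52. CM minus MEF was 1.16 ± 0.68 (adjusted p = 0.152), and it was called only without MEF replicate 2, at 1.83 (adjusted p = 0.0293).

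Skeletal muscle markers moved with Cdh15. In CiCM 6 of 8 lay at or above the line, against 1 of 8 in MEF and 2 of 8 in CM, and their summed linear signal was 74826 to 83297 in CiCM, 911 to 1055 in MEF and 1423 to 2182 in CM. Among them Myog, the differentiation factor myogenin, read 12.73, 12.61 and 12.43 in CiCM, and Mymk, the fusion protein myomaker, 12.24, 12.07 and 12.41. Myf5 and Pax7, markers of early myoblasts and satellite cells, lay under the line on every CiCM array, at 4.61, 4.05 and 5.10 for Myf5 and 0.95, 4.54 and 2.42 for Pax7. The part of these cells in the Cdh15 difference was not tested.

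**Figure D2:**
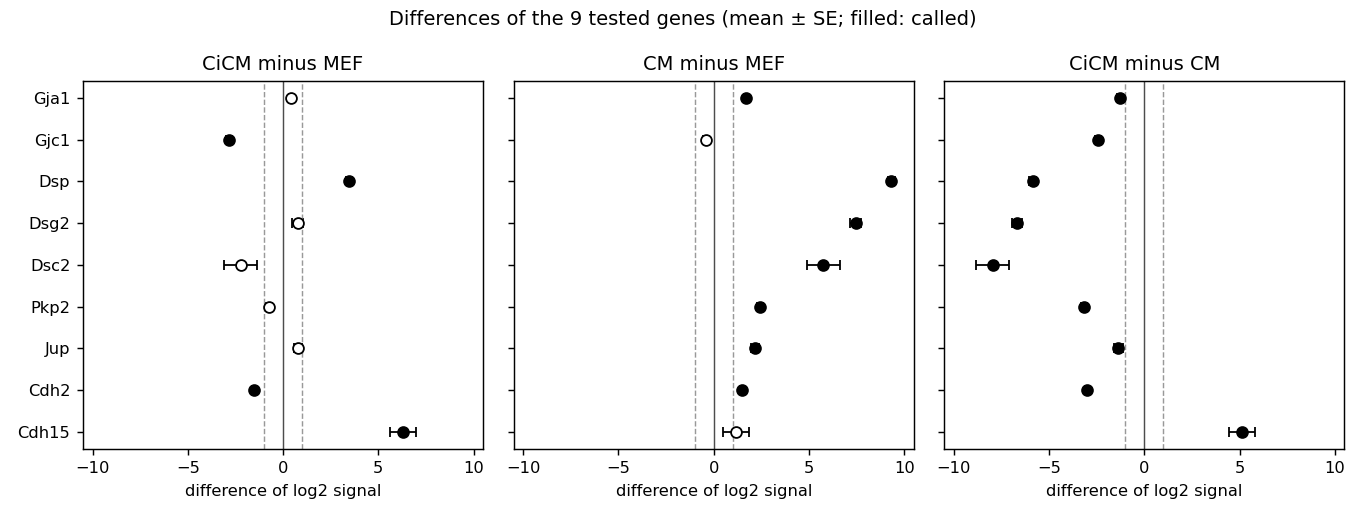
Difference of log2 signal (horizontal axis, mean ± SE) of the 9 tested genes in the 3 comparisons, filled where called, with the minimum difference of 1 dashed. CM minus MEF is called to the right of 0 for 7 genes, CiCM minus CM is called to the left for 8, and Cdh15 is the called exception at 5.11.

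Of the 28 probe sets 26 passed the line and were tested. Among these, CM minus MEF was called higher for 21 and lower for 0, where 24.0% of all tested probe sets were higher and 21.6% lower. CiCM minus CM was lower for 23 and higher for 1, against 20.4% lower and 15.8% higher among all probe sets. CiCM minus MEF was higher for 4 and lower for 5, against 11.8% and 12.2%. Probe sets of 1 gene read the same RNA and are not independent. Gja1 had 6, with differences of 0.81 to 2.45 for CM minus MEF, of which 5 were called, and -1.45 to -0.96 for CiCM minus CM, of which 4 were called. For CiCM minus MEF the 6 ran from -0.15 to 1.00 and 0 were called. All 3 Dsp probe sets were higher in CM than in MEF, by 5.63 to 9.31, and 2 of 3 were higher in CiCM than in MEF, the third being 2.19 with no call. All 5 tested Dsg2 probe sets were higher in CM than in MEF and lower in CiCM than in CM, as were both of Dsc2. Each of these passed the line only through CM, which favours such calls. Probe sets whose names end in _x_at or _s_at can match more than 1 transcript. This touches 4 of the Gja1 probe sets and the main probe sets of Dsp, Pkp2 and Jup. It also touches the other Gjc1 probe set, the Dsg2 probe set called higher in CiCM than in MEF, and another of Dsg2.

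**Figure D3:**
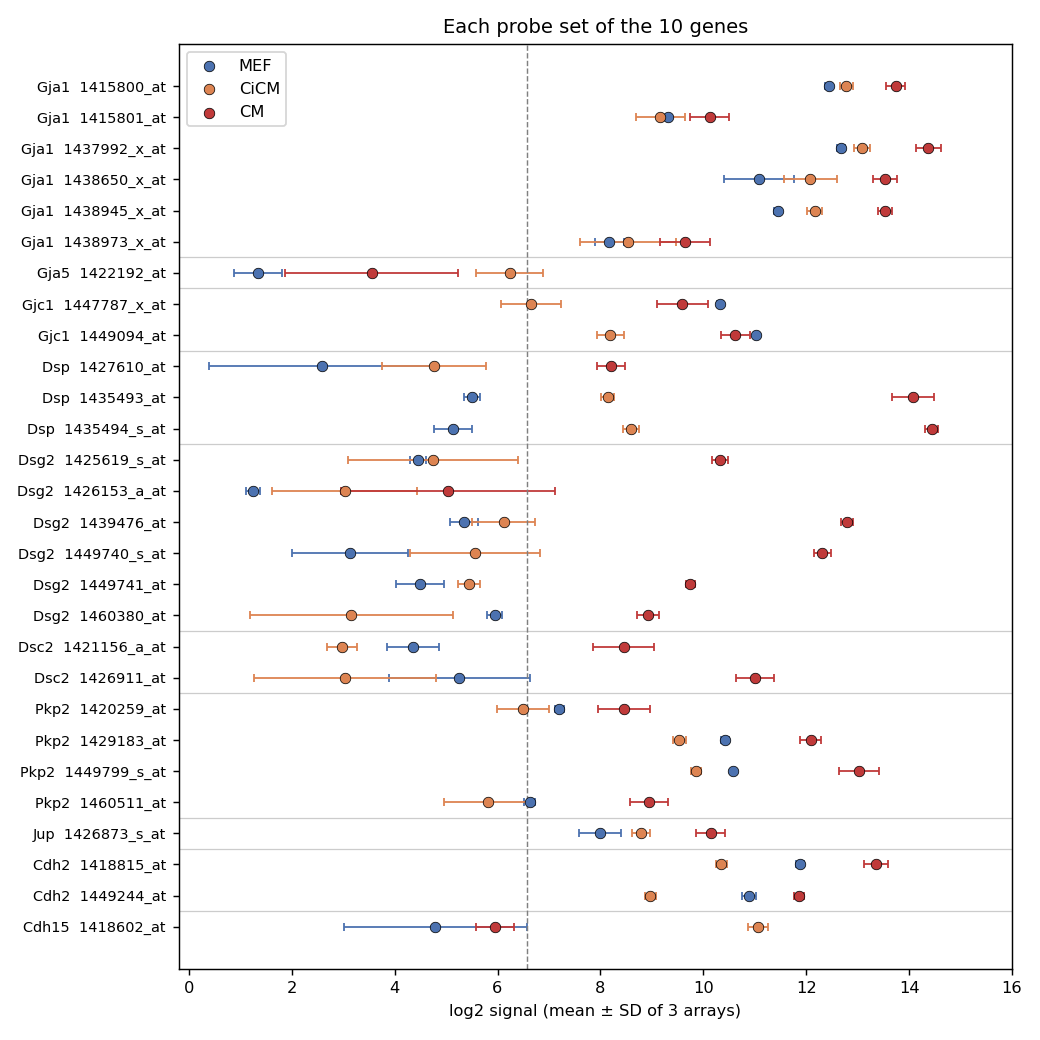
Mean log2 signal (horizontal axis, ± SD of 3 arrays) of each of the 28 probe sets in MEF, CiCM and CM, with the line of 6.58 dashed. Both probe sets of Gjc1 and of Cdh2 are lowest in CiCM, and the probe sets of Dsp, Dsg2, Dsc2 and Pkp2 are highest in CM.

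Other genes of cell junctions and the disc were described from 5 lists of 77 genes, of which 63 had a probe set and 42 were tested. In CiCM against MEF 16 of the 42 were higher and 5 lower, where 11.6% of all tested genes were higher and 12.2% lower. In CM against MEF 22 were higher and 11 lower, against 22.1% and 21.8% of all genes. In CiCM against CM 5 were higher and 21 lower, against 16.5% and 19.0% of all genes. The median log2 differences of the 42 were 0.16, 1.54 and -0.95, and Vcl stands in 2 of the lists. Some of the 42 passed the line through 1 group alone, which favours calls toward that group. Among them were Ppl, Gja4, Cdh5 and Ctnna3 through CM, and Cdh3 and Cdh10 through MEF. Most of those higher in CiCM than in MEF were muscle genes found at the disc: 10 of 15 tested, with 0 lower and a median of 1.95. The same 15 had 11 higher and 3 lower in CM than in MEF, and 1 higher and 9 lower in CiCM than in CM.

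Xirp1, an actin-binding protein of the disc, read 0.90, 3.12 and 1.08 in MEF, 10.32, 10.34 and 10.57 in CiCM, and 11.42, 10.85 and 11.31 in CM. Its CiCM minus MEF difference was 8.71 ± 0.49 (adjusted p = 2.25e-07), and CiCM minus CM was -0.78, which was not called. Des, desmin, the filament that desmoplakin binds, had a difference of 4.40 for CiCM minus MEF and 0.19 for CiCM minus CM, its arrays overlapping between CiCM and CM, whereas those of Dsp did not. Csrp3, a muscle LIM protein, had 8.39 for CiCM minus MEF and -1.82 for CiCM minus CM, Ldb3, a Z-disc protein, 4.83 and -1.11, and Nrap 4.31 and -1.60. Myzap, a desmoplakin-binding protein of the cardiac disc, read 5.50, 5.58 and 6.21 in MEF, 10.58, 10.38 and 10.64 in CiCM, and 13.47, 13.78 and 13.87 in CM. Desmin, Xirp1, Csrp3, Ldb3 and Nrap are also made by skeletal muscle, whose markers were high in CiCM, and the part of those cells was not tested. In the opposite direction, Tmem43 was called higher in CiCM than in CM, by 2.72, and lower in CM than in MEF, by -2.40.

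Of 20 other connexins and pannexins 14 had a probe set and 4 were tested. Gja3, a connexin best known from the lens, read 4.66, 4.61 and 0.46 in MEF, 7.93, 7.42 and 7.53 in CiCM, and 10.32, 9.99 and 10.16 in CM. It was higher in CiCM than in MEF, by 4.39 ± 0.90 (adjusted p = 0.00215), and lower in CiCM than in CM, by -2.53. Gja4, a connexin of arterial endothelium, was 4.26 higher in CM than in MEF and was not called in CiCM against MEF (-0.94). Gjb2 was lower than MEF in both CiCM (-1.93) and CM (-2.72). Panx1, which forms channels rather than junctions, was lower in CM than in MEF (-2.93) and higher in CiCM than in CM (3.73).

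Only 3 of the 10 other desmosome genes with a probe set lay above the line, among 13 listed. All 3 were higher in CM than in MEF and lower in CiCM than in CM: Perp by 3.80 and -4.15, Ppl by 3.36 and -2.34, and Pkp4 by 2.65 and -1.58. Ppl passed the line only through CM (mean 8.03, against 4.67 in MEF and 5.69 in CiCM), so the filter favoured its calls. Of all tested genes 22.1% were called higher in CM than in MEF and 19.0% lower in CiCM than in CM. Pkp4, a plakophilin-related protein, was also higher in CiCM than in MEF, by 1.07. The desmogleins and desmocollins of skin on this list were not tested.

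Among 9 tested cadherins outside the members, CM minus MEF had 3 higher and 4 lower, CiCM minus MEF 2 higher and 2 lower, and CiCM minus CM 1 higher and 3 lower. The shares of all tested genes were 22.1% and 21.8%, 11.6% and 12.2%, and 16.5% and 19.0% in that order. Cdh5, the cadherin of endothelium, read 5.15, 4.09 and 5.94 in MEF, 5.65, 5.57 and 3.99 in CiCM, and 11.30, 11.38 and 12.05 in CM. It was 6.52 ± 0.53 higher in CM than in MEF (adjusted p = 1.24e-06), and CiCM minus MEF was 0.01. Endothelial markers were likewise highest in CM: 8 of 8 were at or above the line there, against 2 of 8 in MEF and in CiCM. Their summed signal was 12025 to 15153 in CM, 628 to 896 in MEF and 441 to 674 in CiCM. In CiCM against MEF, Vwf was called higher (5.65) and Emcn lower (-2.58), and the others were not called. Gja4, and the members Jup and Gja5, are known from endothelium too, and the part of endothelial RNA in their CM values was not tested. Cdh11, a cadherin of mesenchymal cells, read 13.93, 13.90 and 13.84 in MEF, 13.62, 13.66 and 13.73 in CiCM, and 9.99, 7.88 and 6.74 in CM. It was lower in CM than in MEF (-5.68 ± 0.60, adjusted p = 8.79e-06) and was not called in CiCM against MEF (-0.22). Fibroblast markers, 6 of 6 at or above the line in each group, summed to 73573 to 75353 in MEF, 74282 to 75231 in CiCM and 22282 to 30307 in CM. Col1a1, Col1a2, Pdgfra, Thy1 and Postn were called lower in CM than in MEF, but Dcn was called higher (1.92). In CiCM against MEF, Dcn was called higher (1.46), Thy1 lower (-1.76) and the others were not called. The part of fibroblasts in the Cdh11 values was not tested. Cdh3 (-4.03) and Cdh10 (-3.75) fell in CiCM against MEF, while Cdh13 (2.61) and Cdh1 (2.48) rose. Cdh1, E-cadherin of epithelia, read 5.83, 7.84 and 8.25 in CiCM, where the epithelial and mesothelial list had 6 of 8 genes at or above the line against 5 in MEF and 3 in CM. Summed signals of that list were 1562 to 2229 in CiCM, 706 to 880 in MEF and 400 to 3398 in CM, and their part in the Cdh1 value was not tested.

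The catenins, cytoplasmic partners of the cadherins, were listed with nectins and adaptors. Of 12 tested catenins, nectins and adaptors, CiCM minus MEF had 2 higher and 2 lower, CM minus MEF 3 and 3, and CiCM minus CM 2 and 4. The shares of all tested genes were 11.6% and 12.2%, 22.1% and 21.8%, and 16.5% and 19.0% in that order. Neither Ctnna1 nor Ctnnb1, the alpha- and beta-catenin that tie cadherins to actin, was called in any comparison. Ctnna3, the alpha-catenin of heart that also binds Pkp2, read 3.91, 4.15 and 5.61 in MEF, 4.88, 3.76 and 4.99 in CiCM, and 8.38, 8.60 and 8.58 in CM. It was 3.96 ± 0.56 higher in CM than in MEF (adjusted p = 8.44e-05), and CiCM minus MEF was -0.01, with every MEF and CiCM array under the line. Ctnnd1, a catenin that binds the cadherin tail, was lower than MEF in both CiCM (-1.47) and CM (-1.41). Ctnnd2 was higher in CiCM than in MEF (2.61) and than in CM (3.45). Cxadr, the coxsackievirus receptor of the disc, was lower in CiCM than in MEF (-1.01) and than in CM (-1.69). Nectin3 (1.78) was higher and Afdn (-2.25) lower in CiCM than in CM.

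**Figure D4:**
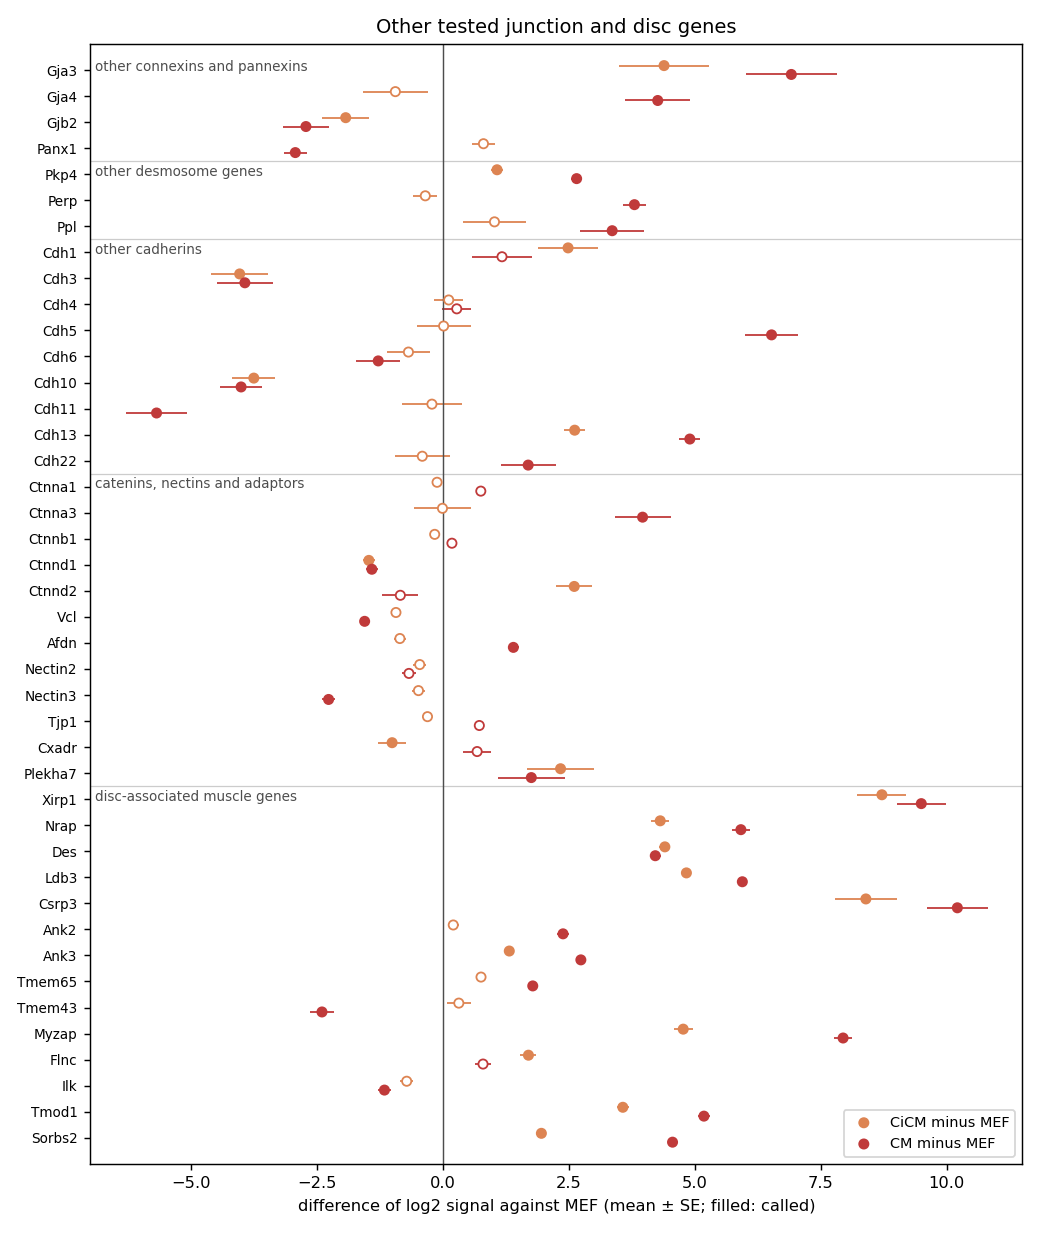
Difference of log2 signal against MEF (horizontal axis, mean ± SE) of the 42 other tested junction and disc genes, grouped by list, for CiCM and CM, filled where called. In the muscle list at the bottom 10 genes are called higher in CiCM, Vcl being drawn with the catenins, while Gja4, Perp, Cdh5 and Ctnna3 are called higher in CM alone.

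**Figure D5:**
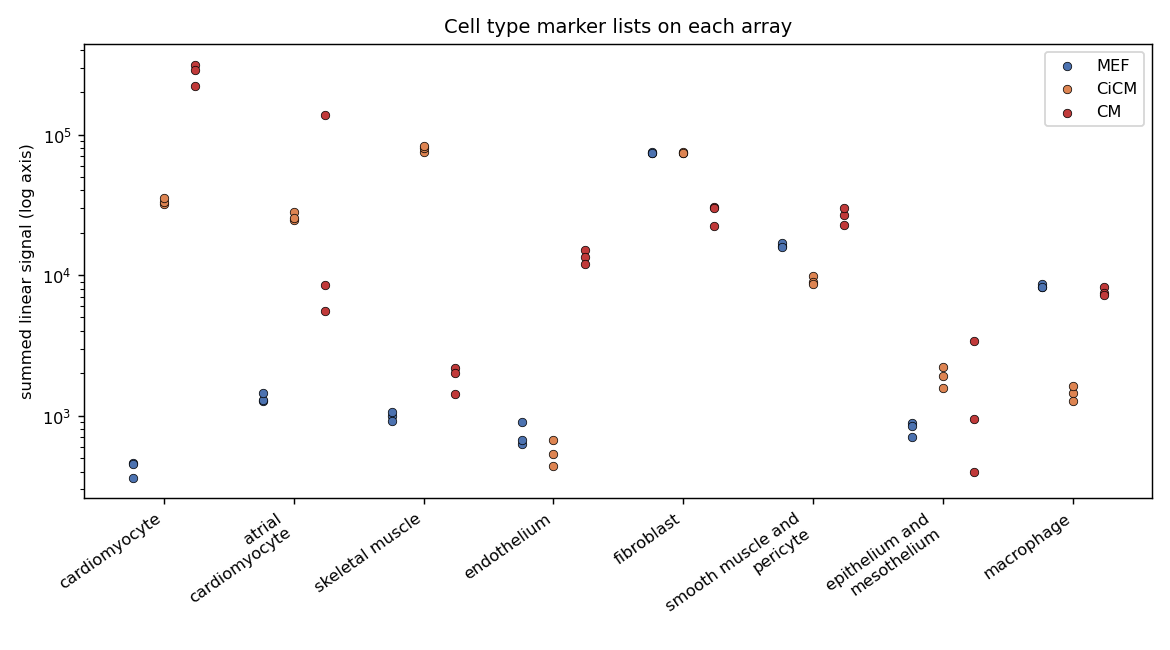
Summed linear signal (log axis) of 8 cell type marker lists on each of the 9 arrays. Skeletal muscle genes stand highest in CiCM at 74826 to 83297, endothelial genes in CM at 12025 to 15153, and CM replicate 1 stands above the other CM arrays for atrial genes at 137314.

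Genes with the pattern most like that of a member were named by the smallest root mean square difference of log2 signal over the 9 arrays, after each gene was centred on its own mean. For Gja1 these were Nmnat3 (0.0931), Scaper (0.124) and Ncald (0.126). For Dsp they were Rbp7 (0.617), Plin5 (0.628) and Smco1 (0.726), all low in MEF and high in CM. For Pkp2, Gpsm1 (0.207), Gdap10 (0.218) and Cacna1c (0.224) came nearest, the last encoding the cardiac L-type calcium channel, and for Cdh2, Lmo2 (0.212), H2-K1 (0.215) and Hmgb3 (0.221). Cdh15 was most like Atp2a1 (0.735), the calcium pump of fast skeletal muscle, Serpinb1a (0.779) and Tceal7 (0.821). Gja5 was most like Dio2 (0.679), Gpx3 (0.746) and Hs3st1 (0.757). The distances are larger for Dsp, Gja5 and Cdh15, whose own values span more log2 units, so they order genes only within a member.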

How the data were processed

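Total RNA was taken from 9 samples, 3 each of MEF, CiCM and CM, labelled with biotin by a 3' kit and read on 1-colour Affymetrix arrays, per the labels' protocols. The authors deposited log2 signals of 45101 probe sets. The submitters' processing notes name MAS5 but give no version. The log2 scale was inferred from the values, since the linear mean trimmed by 2% at each end came to 500.003 on all arrays. Scan dates and detection calls were not analysed here, so batch and group cannot be told apart where they coincide.

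Probe sets were named through the platform annotation at GEO, possibly outdated: 1 symbol for 34945, several for 932, none for 9160, besides 64 controls. A gene was taken as its 1-symbol probe set with the highest mean over 9 arrays, which gave 18193 genes. Those with no group mean at or above 6.58 were left out, 5634 in number, so that 12559 genes were tested, and 26547 probe sets in the fit by probe set. The 9 arrays were fitted together with limma 3.58.1 in R 4.3.3 (lmFit, eBayes with a variance trend, 2-sided, no covariates), and p-values were Benjamini-Hochberg adjusted over all genes of a comparison. The fits were tested on simulated data. With 3 arrays a group the smallest exact permutation p is 0.1, so calls rest on the model's shared spread. Same-numbered samples did not deviate together (correlations of -0.016 to 0.067).

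The members, the lists and the naming rule were chosen with earlier results of these data known. That rule took every member, up to 4 called genes of largest difference in each other list and those called in opposite directions; other list genes were named after their values were seen. Alternatives were 32 or 128 added to linear signals, another or no filter, quantile normalization, median centring, averaging a gene's probe sets, fitting 2 groups alone, no variance trend, no minimum difference, a replicate block and each array left out. Levelling on 18 hybridisation control probe sets was chosen after seeing the data. Python 3.11.15 with matplotlib 3.10.9 drew the figures.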

Additional observations from a re-analysis of the deposited data

Results flagged for a closer look

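Pkp2 and Cdh2 lay on opposite sides of MEF in the 2 kinds of muscle cell. The difference between CiCM and CM was tested directly, which does not test either of them against MEF. For Pkp2 it was -3.16 on the log2 scale (adjusted p = 7.20e-08, limma), with all 3 CiCM arrays under every MEF array and all 3 CM arrays above. For Cdh2 it was -3.00 (adjusted p = 1.48e-08, limma), with the same placing of all 9 arrays. The Pkp2 difference between CiCM and MEF, -0.73, did not itself reach the minimum difference of 1. For Cdh2, CM minus MEF was not called in the second probe set (0.96) or after levelling on hybridisation controls. With 3 arrays a group, single arrays were not tested for standing apart.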

How the results depend on the processing

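The 27 member differences were recomputed under 21 alternatives, 9 of which leave out 1 array, giving 567 values. None changed sign, 547 stayed on their side of the call, 14 gained a call and 6 lost one. Those lost were for Gja1, Jup and Cdh2 under another scaling, at the values given beside these genes. With no minimum difference, 5 members were higher in CiCM than in MEF, 11 other junction genes were lower, 1 member was lower in CM than in MEF, and 8 other junction genes were higher in CiCM than in CM. Dropping the minimum can only add calls, among all genes as well. Their share was not counted, so these counts say nothing particular of the members or the lists. Levelled on hybridisation controls, 8 other junction genes were lower in CiCM than in MEF, 1 member was lower in CM than in MEF and 11 other junction genes were higher in CiCM than in CM. With no filter, 2 members were higher in CiCM than in CM, the second being Gja5. With each array left out in turn, members higher in CM than in MEF numbered 7 to 8 and members lower in CiCM than in CM 8. With the replicate block, Dsc2 in CiCM minus MEF was -2.23 and called lower (adjusted p = 0.0258, limma), so that 3 members were lower, and no other member's call changed; the numbers did not pair the samples. Scaling set the share of all calls that were higher: 48.6%, 50.4% and 46.5% for CiCM minus MEF, CM minus MEF and CiCM minus CM, against 45.3%, 34.6% and 62.9% after median centring. Levelled on hybridisation controls, the genes called higher and lower were 1133 and 2079, 1523 and 5579, and 4078 and 1357, and levelling moved the median of all genes by -0.24, -0.85 and 0.60. Signals under 6.58, as for Dsp, Dsg2, Dsc2 and Cdh15 in MEF, limit the size of the folds that rest on them.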
